A study of Mus musculus with 4 samples.

Results

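Aminoacyl-tRNA synthetases, the enzymes that join each amino acid to its tRNA, were followed by ribosome profiling in mouse embryonic stem cells. The family was chosen with earlier results of these data known, and its genes were taken by symbol. There were 20 genes for the cytosolic enzymes and 16 for the mitochondrial ones, whose symbols end in ars2. These make 36 of the 25170 genes in the table. 35 were listed under their own symbol, and the methionine enzyme Mars was listed as Mars1. All 36 averaged 1 FPKM or more over the 4 libraries, the level set for comparing groups. FPKM are fragments scaled to the length of the transcript and to the mapped fragments of the library, so levels of different genes can be set side by side per length. The cells were E14, a wild-type line from the inner cell mass, kept with serum and LIF on gelatin. The 4 libraries were 2 from cells given DMSO, the solvent, and 2 from cells given 1 µM PD, each over 3 passages, in a study of what the kinase Mek does to gene expression after transcription. The labels name the compound only as PD. They do not say whether the replicates were separate cultures, so a p-value here reflects how these libraries vary among themselves, which could be technical variation only. RNase I footprints report where ribosomes sat, so a level here joins the amount of an mRNA with how densely it was read, and in bulk cells a change per cell cannot be told apart from a change in the mix of cells.

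Every codon is read through a charged tRNA, and each synthetase recognises its amino acid and its tRNAs, with an editing step in several enzymes that removes wrong amino acids. Most amino acids have an enzyme for the cytosol and a separate nuclear-encoded enzyme that is imported into mitochondria, where a small set of respiratory chain proteins is made. Kars and Gars serve both compartments, Eprs joins glutamate and proline activities in a single cytosolic protein, and the cytosolic phenylalanine enzyme is built of the subunits Farsa and Farsb. When amino acids run short, uncharged tRNA activates the kinase Gcn2, phosphorylation of eIF2 slows initiation, and translation of the transcription factor Atf4 goes up, after which Atf4 acts on amino acid transporters, biosynthetic enzymes and many cytosolic synthetases.

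The promoters of the cytosolic enzymes known as Atf4 response genes are shown first, as a feature that no footprint value enters. Promoters were those of RefSeq on GRCm38.p6, from 250 bases before to 50 bases after the start, and 27 of the 36 genes were found there. The letters TGATGNAA, a common core of the element that Atf4 binds with a C/EBP partner, were searched on both strands, so that a match on the other strand reads TTNCATCA. They lay in 5 of 8 promoters of Atf4 response synthetases (62.5%), in 0 of 5 of the other cytosolic enzymes and in 0 of 14 of the mitochondrial ones. Of all 32851 promoters of the same length, 3.97% held a match, and counted by gene 4.51% of 27025 did. The first group was listed because its enzymes are known to respond to Atf4, so a higher share there may follow from that choice. Capitals mark the match in the 120 bases before the start of the alanine enzyme Aars (chr8:111033722-111033841, plus strand), the glycine enzyme Gars (chr6:55037881-55038000, plus strand) and the threonine enzyme Tars (chr15:11399659-11399778, minus strand).
Aars: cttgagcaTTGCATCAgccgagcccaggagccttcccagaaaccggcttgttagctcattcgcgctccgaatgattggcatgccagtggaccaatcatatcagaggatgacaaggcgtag
Gars: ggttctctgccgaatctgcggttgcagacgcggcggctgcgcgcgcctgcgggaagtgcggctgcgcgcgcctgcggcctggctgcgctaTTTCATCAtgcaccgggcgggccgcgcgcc
Tars: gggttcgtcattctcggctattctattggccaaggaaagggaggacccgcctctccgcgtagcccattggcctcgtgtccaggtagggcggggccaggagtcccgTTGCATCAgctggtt
The match began 112 bases before the start in Aars, 30 before in Gars and 15 before in Tars. In the isoleucine enzyme Iars (chr13:49682126-49682155, plus strand), in the tyrosine enzyme Yars (chr4:129189895-129189924, plus strand) and at a further match in Aars (chr8:111033840-111033869, plus strand) it lay just after the start, and 30 bases around it are given.
Iars: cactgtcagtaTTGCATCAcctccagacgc
Yars: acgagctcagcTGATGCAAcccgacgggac
Aars, after the start: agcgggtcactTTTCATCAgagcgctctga
For comparison, no match was found in the whole 300-base window of the serine enzyme Sars, an Atf4 response gene too. The same held for the mitochondrial methionine enzyme Mars2. Only the 120 bases before the start are printed for Sars (chr3:108445260-108445379, minus strand) and Mars2 (chr1:55237057-55237176, plus strand). Sars had the largest downward difference between PD and DMSO among the cytosolic enzymes, and Mars2 the largest upward one among the mitochondrial ones.
Sars: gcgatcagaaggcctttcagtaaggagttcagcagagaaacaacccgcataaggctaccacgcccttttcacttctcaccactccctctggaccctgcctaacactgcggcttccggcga
Mars2: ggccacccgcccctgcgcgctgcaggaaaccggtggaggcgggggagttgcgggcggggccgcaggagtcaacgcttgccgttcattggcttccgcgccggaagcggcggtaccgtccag
A match is a run of letters and not a measured binding site, and its absence says only that these letters are not in this window.

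The libraries differed in depth along with treatment. Read from the steps between low values, depth relative to DMSO replicate 1 was 1.42 for the second DMSO library but only 0.464 and 0.201 for PD replicates 1 and 2. Whole reads could be recovered for 22 of the synthetases, with a median per enzyme over 13 cytosolic enzymes of 1086 and 1558 under DMSO and of 458 and 193 under PD. Over 9 mitochondrial enzymes the medians were only 55, 91, 31 and 16 reads. Each recovered read number is the lowest that fits, so the true one may be a multiple of it. Most of the FPKM sum of each library, 95.1% to 97.7%, fell on miRNA genes, so a further scaling used protein-coding genes alone. All 10 embryonic stem cell markers were above 1 FPKM. Their sums were 2312 and 2286 FPKM in DMSO and 2265 and 3900 in PD, so PD replicate 2 stood apart. The highest of these markers was Dppa5a, with a mean of 1918 FPKM. Of 9 feeder and fibroblast markers 2 were above 1 FPKM and 2 were at 0 in every library, with sums of 3.3 to 7.84 FPKM and the highest sum in PD replicate 2. The part of depth and of these markers in the differences below was not tested.

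Footprints on the cytosolic enzymes were abundant and summed to similar levels in PD and DMSO, with 10 of the 20 enzymes higher in PD. Of the 16 mitochondrial enzymes 10 lay a little higher in PD, and none of either group passed the test. The median log2 difference of all genes tested was -0.02, so genes at large lay about as often higher as lower. The 20 cytosolic enzymes summed to 2092 and 2223 FPKM under DMSO and to 2215 and 2070 under PD. Their median level per library was 90.2 and 90.9 FPKM under DMSO and lower under PD, at 78.8 and 75. The 16 mitochondrial enzymes summed to 159 and 147 FPKM in DMSO and to 164 and 182 in PD. Cytosolic enzymes thus had 13.2 and 15.2 times the summed level of the mitochondrial ones in DMSO and 13.5 and 11.3 times in PD. In 4 of 4 libraries the lowest cytosolic enzyme was above the highest mitochondrial one. The cytosolic enzymes took 0.783% and 0.873% of the FPKM sum of the protein-coding genes tested in DMSO and 0.835% and 0.770% in PD.

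**Figure D1:**
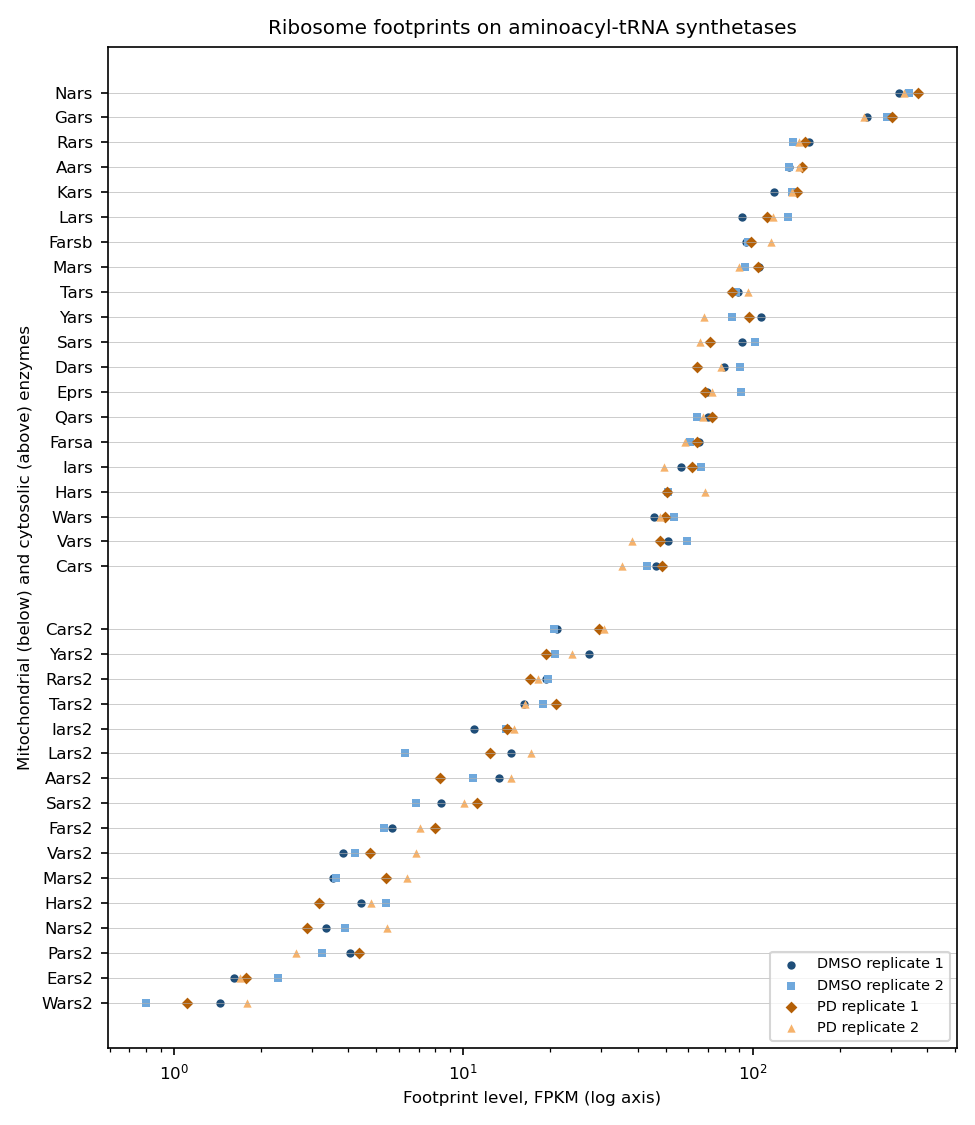
Footprint levels of the 36 synthetases in FPKM on a log axis, with a symbol for each of the 4 libraries, cytosolic enzymes above and mitochondrial enzymes below, ordered by mean. The cytosolic enzymes lie above the mitochondrial ones in every library, and the symbols of DMSO and PD are mixed for most genes.

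The asparagine enzyme Nars had the highest level, at 321 and 347 FPKM under DMSO and at 374 and 334 under PD. Its level lay at the 98.9 percentile of the 8895 protein-coding genes tested. The glycine enzyme Gars (mm10, chromosome 6, 55038001 to 55079504) came next, at 248 and 291 FPKM in DMSO and 303 and 243 in PD. Both groups hold a high and a low library for Gars, and its log2 difference was 0.01 (SE 0.28, limma adjusted p = 0.995). That sign was negative with the table rescaled to protein-coding genes (-0.02), without DMSO replicate 1 and without PD replicate 1. The arginine enzyme Rars (chromosome 11, 35808381 to 35834528), a member of the multi-synthetase complex, stood at 157 and 138 FPKM in DMSO and at 151 and 145 in PD. Its PD libraries lay between its DMSO libraries, and its log2 difference of 0.01 had the other sign in the rescaled table (-0.02). In 4 of 4 libraries Nars was above Gars, Gars above Rars and Rars above Aars, while the ranges of Rars and Aars over the libraries overlapped. The lowest cytosolic enzymes were those for cysteine (Cars), valine (Vars) and tryptophan (Wars), with means of 43.3, 49 and 49.2 FPKM.

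Of the 20 cytosolic enzymes, 0 passed the test between PD and DMSO over all genes (limma adjusted p from 0.837 to 0.997), and 0 had an unadjusted p under 0.05. limma called 0.0308% of the 9741 genes tested higher in PD and 0.226% lower, none of them protein-coding, and voom on the recovered reads, which kept 22 synthetases, called 0 genes and 0 synthetases. The median log2 difference of the cytosolic enzymes was -0.0028, with 10 above 0 and 10 below, against -0.02 for all genes tested and 0.00 for protein-coding genes of 20 to 400 FPKM, a range that holds all of them. The smallest and largest differences were -0.49 for Sars and 0.21 for the histidine enzyme Hars. The 95% interval of the difference lay within 1 log2 unit of 0 for 17 of the 20, so for these a change of 2 times either way fell outside the interval. Both PD libraries were above both DMSO libraries for 2 cytosolic enzymes and below them for 3, and 15 overlapped. Over all genes tested, 17.5% were higher in this sense, 18.3% lower and 35.8% in either direction, so the 25% of the cytosolic enzymes without overlap was below that background. With quantile normalization 6 were higher and 2 lower, and the median was 0.04, the same as that of all genes under this scaling (0.04), of which 21.3% were then higher and 15.7% lower. After rescaling to protein-coding genes, 1 was higher and 3 lower.

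The serine enzyme Sars, which also charges the tRNA that becomes selenocysteine tRNA (mm10, chromosome 3, 108424864 to 108445259), had the largest difference among cytosolic enzymes. Its level was 92.2 and 102 FPKM under DMSO and 71 and 66 under PD. Both PD libraries were below both DMSO libraries, by a log2 difference of -0.49 (SE 0.24, 95% interval from -1.14 to 0.15, limma adjusted p = 0.837). The valine enzyme Vars, which forms a complex with elongation factor 1 (chromosome 17, 35000907 to 35016329), was at 50.8 and 59.1 FPKM in DMSO and at 47.8 and 38.1 in PD. Its lower DMSO library and its higher PD library were close to each other, and the log2 difference was -0.35 (SE 0.27, limma adjusted p = 0.844). Vars rested on 946 and 1558 recovered reads in DMSO and on 413 and 143 in PD. The ratio of PD to DMSO in those reads, scaled for depth, was 0.807, with a 95% interval of 0.735 to 0.885 that covers counting error only.

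The aspartate enzyme Dars, of the multi-synthetase complex (chromosome 1, 128363707 to 128417416), was the other cytosolic enzyme with both PD libraries low. Its level was 79.9 and 90.7 FPKM in DMSO and 64.2 and 77.7 in PD, a log2 difference of -0.27 (SE 0.26, limma adjusted p = 0.867). PD replicate 2 was only a little below DMSO replicate 1. In the other direction, the alanine enzyme Aars (chromosome 8, 111033842 to 111055569) had 133 and 134 FPKM in DMSO and 148 and 144 in PD. These libraries did not overlap, yet the difference was 0.13 log2 units (SE 0.24, limma adjusted p = 0.938). Farsb, the beta subunit of the cytosolic phenylalanine enzyme, had 94.9 and 96.7 FPKM in DMSO and 98.4 and 116 in PD, where PD replicate 1 was close to the DMSO libraries (limma adjusted p = 0.928). The locus of Farsb in the table also covers Sgpp2. The partner subunit Farsa had 65.3 and 60.6 FPKM in DMSO and 64.1 and 58.5 in PD. Farsa and Farsb pair in equal numbers in the enzyme, and their FPKM ratio was 0.688 and 0.627 in DMSO and 0.651 and 0.505 in PD. The ratio was below 1 in every library and lowest in PD replicate 2.

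**Figure D2:**
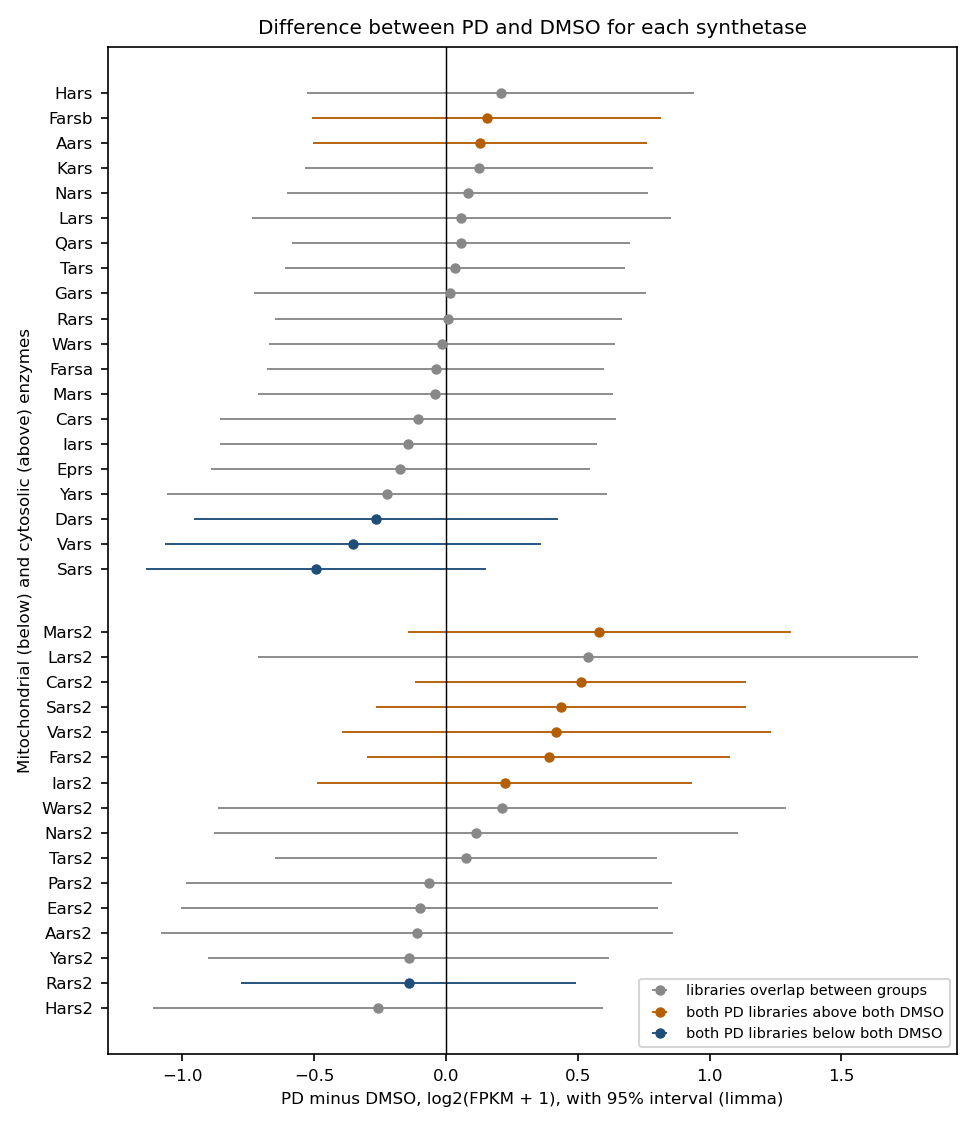
Difference between PD and DMSO in log2(FPKM + 1) for each synthetase, with the limma 95% interval as a bar, cytosolic enzymes above and mitochondrial enzymes below. Colour marks genes whose PD libraries were both above or both below the DMSO libraries, and every interval includes 0, from Sars at -0.49 to Mars2 at 0.58.

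The other cytosolic enzymes had libraries that overlapped between the groups. The lysine enzyme Kars had 119 and 137 FPKM in DMSO and 142 and 137 in PD, and the leucine enzyme Lars, which also senses leucine for the mTORC1 pathway, had 91.7 and 133 in DMSO and 112 and 118 in PD. The DMSO libraries of Lars stood farther apart than its groups did. For the tyrosine enzyme Yars, with 107 and 84.5 FPKM in DMSO and 97.1 and 67.9 in PD, and for Cars, with 46.2 and 43 in DMSO and 48.6 and 35.2 in PD, PD replicate 2 was the low library. For Hars, at 50.6 and 51 FPKM in DMSO and 50.6 and 68.4 in PD, the same library was the high one. Eprs was at 69.5 and 91.1 FPKM in DMSO and at 68.6 and 72.3 in PD, the glutamine enzyme Qars at 70.2 and 64 and at 72.5 and 67.2, and Iars at 56.4 and 66.1 and at 61.6 and 49.4. Mars had 106 and 94.3 FPKM in DMSO and 105 and 89.7 in PD, at a locus that the table shares with Ddit3, so that the reads of both may be mixed. Tars and Wars kept within 85.1 to 96.1 and 45.6 to 53.4 FPKM.

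The Atf4 response enzymes and the other cytosolic ones had medians close to 0, and the difference between them was not tested. Of these 12 enzymes, 1 was higher in both PD libraries (Aars), 1 lower (Sars) and 10 overlapped, with a median log2 difference of -0.03. Of the 8 others, 1 was higher (Farsb), 2 were lower (Dars and Vars) and 5 overlapped, with a median of 0.03. Without overlap were 16.7% of the 12 and 37.5% of the 8, beside 35.8% of all genes. The first median was -0.14 without PD replicate 1, and the second was 0.11 with quantile normalization and -0.05 without DMSO replicate 2. The 5 enzymes whose promoters hold the letters shown above, Aars, Gars, Iars, Tars and Yars, had log2 differences of 0.13, 0.01, -0.14, 0.03 and -0.22. Atf4 itself had 69.4 and 77.4 FPKM in DMSO and 65.5 and 61.2 in PD. Its PD libraries were below its DMSO libraries by 0.21 log2 units, which is less than its SE of 0.24 (limma adjusted p = 0.891). Levels are given per gene, so footprints on the coding sequence of Atf4 cannot be told apart from those elsewhere on its mRNA.

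The multi-synthetase complex holds 8 synthetases on 3 scaffold proteins. The log2 differences of these 8 ran from -0.27 for Dars to 0.13 for Kars with a median of -0.02. All 8 intervals lay within 1 log2 unit of 0. Between groups 7 of 8 overlapped, which is 12.5% without overlap beside 35.8% of all genes. The 12 cytosolic enzymes outside the complex ran from -0.49 to 0.21 with a median of 0.00. Among these 12, 2 were higher, 2 lower and 8 overlapping, or 33.3% without overlap. The ranges cover different numbers of genes, and the difference between the 2 groups of enzymes was not tested. Of the scaffolds, Aimp1 had 68.5 and 62.9 FPKM in DMSO and 70.8 and 71.1 in PD, and Aimp2 had 98.5 and 72.2 in DMSO and 77.6 and 96.9 in PD. Eef1e1, the smallest scaffold, had 68.6 and 49.9 FPKM in DMSO and 47.8 and 46.1 in PD, with a log2 difference of -0.31 (SE 0.28, limma adjusted p = 0.861). Aimp1 was thus a little higher and Eef1e1 lower in both PD libraries, and neither passed. Split by the fold of the catalytic domain, the 19 class I enzymes had a median of -0.01 and the 17 class II enzymes one of 0.08. Each class had 4 higher and 2 lower, or 31.6% and 35.3% without overlap beside 35.8% of all genes. Eprs, which has domains of both, counted as class I.

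Of the 16 mitochondrial enzymes, 6 were higher in both PD libraries than in either DMSO library, 1 was lower and 9 overlapped, which is 43.8% without overlap beside 35.8% of all genes. Again 0 passed (limma adjusted p from 0.837 to 0.983), with 0 at an unadjusted p under 0.05 and 0 by voom. The median log2 difference was 0.16, against -0.04 for protein-coding genes of 1 to 30 FPKM, a range close to theirs, and 10 of the 16 differences were above 0. This median was 0.06 without DMSO replicate 1, 0.29 without PD replicate 1 and 0.07 with a pseudocount of 5 FPKM. Voom, which kept 9 of the enzymes, gave 0.43, and the same 9 had a median of 0.42 in the limma fit of FPKM. Quantile normalization gave 0.23, with 6 higher and 0 lower, and rescaling to protein-coding genes gave 0.14, with 5 higher and 1 lower. The interval of the difference lay within 1 log2 unit of 0 for only 5 of the 16, and the median SE was 0.29, beside 0.25 for the cytosolic enzymes and 0.37 for all genes tested.

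Mars2, the mitochondrial methionine enzyme (chromosome 1, 55237177 to 55240058), had the largest difference of all synthetases. It stood at 3.55 and 3.64 FPKM under DMSO and at 5.39 and 6.4 under PD, a log2 difference of 0.58 (SE 0.27, 95% interval from -0.14 to 1.31, limma adjusted p = 0.837). The DMSO libraries were close together and both PD libraries were clear of them, on 44 and 64 recovered reads in DMSO and 31 and 16 in PD. The depth-scaled ratio of those reads was 1.58, with a 95% counting interval of 1.1 to 2.25. The cysteine enzyme Cars2 (chromosome 8, 11514017 to 11550771), also known to form cysteine persulfides, had the highest mean level of the mitochondrial enzymes, with 21 and 20.6 FPKM in DMSO and 29.4 and 30.6 in PD. Each group was tight for Cars2 and the gap between them was wide, with a log2 difference of 0.51 (SE 0.23, 95% interval from -0.12 to 1.14, limma adjusted p = 0.837). Its 160 and 222 recovered reads in DMSO and 104 and 47 in PD gave a ratio of 1.44, with a counting interval of 1.18 to 1.74. The difference of Cars2 stayed between 0.48 and 0.54 when each library in turn was left out.

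The serine enzyme Sars2 (chromosome 7, 28741968 to 28753879) had 8.35 and 6.87 FPKM in DMSO and 11.2 and 10 in PD, a log2 difference of 0.44 (SE 0.26, limma adjusted p = 0.837). It thus lay on the other side of 0 from the cytosolic serine enzyme. The valine enzyme Vars2, also opposite to its cytosolic counterpart, had 3.84 and 4.23 FPKM in DMSO and 4.74 and 6.86 in PD, where PD replicate 1 was not far above DMSO (limma adjusted p = 0.839). Fars2, the phenylalanine enzyme of mitochondria, a single chain unlike the cytosolic one, had 5.69 and 5.31 FPKM in DMSO and 7.97 and 7.07 in PD, with a log2 difference of 0.39 (SE 0.26, limma adjusted p = 0.837). The isoleucine enzyme Iars2 had 10.9 and 14 FPKM in DMSO and 14.1 and 15 in PD, with PD replicate 1 hardly above DMSO replicate 2 (limma adjusted p = 0.895). Iars2 shares its locus in the table with Rab3gap2. Only the arginine enzyme Rars2 had both PD libraries below, at 19.3 and 19.6 FPKM in DMSO and 17 and 18.1 in PD, a log2 difference of -0.14 (SE 0.24, limma adjusted p = 0.931).

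Among the mitochondrial enzymes whose libraries overlapped, those for tyrosine and threonine were the highest. Yars2 had 27.2 and 20.8 FPKM in DMSO and 19.3 and 23.8 in PD, and its log2 difference of -0.14 was above 0 without DMSO replicate 1. Tars2 had 16.2 and 18.8 FPKM in DMSO and 20.9 and 16.4 in PD, and its difference of 0.08 was below 0 without DMSO replicate 1 or PD replicate 1. The leucine enzyme Lars2 had 14.6 and 6.3 FPKM in DMSO and 12.3 and 17.1 in PD. Its DMSO libraries were far apart, so that a log2 difference of 0.54 came with the largest SE of the synthetases, 0.47 (limma adjusted p = 0.861). The alanine enzyme Aars2 had 13.3 and 10.8 FPKM in DMSO and 8.3 and 14.7 in PD, and the asparagine enzyme Nars2 had 3.34 and 3.91 in DMSO and 2.88 and 5.43 in PD. In both the PD libraries were the outer values. Hars2, a neighbour of Hars on the same chromosome, had 4.42 and 5.39 FPKM in DMSO and 3.18 and 4.8 in PD, and the proline enzyme Pars2 had 4.05 and 3.24 in DMSO and 4.37 and 2.65 in PD. The lowest synthetases were the glutamate enzyme Ears2, at 1.61 and 2.29 FPKM in DMSO and 1.77 and 1.7 in PD, and the tryptophan enzyme Wars2, at 1.44 and 0.802 in DMSO and 1.11 and 1.79 in PD. Wars2 rested on 28 and 22 reads in DMSO and 10 and 7 in PD, and the counting interval of its ratio, 0.668 to 2.18, left the direction unresolved at this depth.

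Mitochondrial enzymes stood above cytosolic ones in their median difference by 0.17 log2 units, and this order held in each pairing of a PD with a DMSO library. It was 0.07 and 0.10 for PD replicate 1 against the DMSO libraries and 0.24 and 0.49 for PD replicate 2, the shallowest library. These 4 values share libraries and are not independent, and the difference between the compartments was not tested. Without DMSO replicate 1 the cytosolic median was below the mitochondrial one by 0.08, and without PD replicate 1 by 0.37 (-0.08 and -0.37 as cytosolic minus mitochondrial).

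Set amino acid by amino acid, the ratio of the cytosolic to the mitochondrial level was lower in both PD libraries for 6 of 16 amino acids, higher for 1 and overlapping for 9. The share over other pairs of genes was not computed, and the ratios reuse the enzyme levels already counted above. For the 6 lower ratios, the mitochondrial enzymes are the same 6 that were counted as higher in both PD libraries. For serine the ratio was 11 and 14.8 in DMSO and 6.35 and 6.57 in PD, the widest gap between the groups in relative terms, as Sars was lower and Sars2 higher. For methionine it was 29.8 and 25.9 in DMSO and 19.4 and 14 in PD, and for cysteine 2.2 and 2.09 in DMSO and 1.65 and 1.15 in PD. Cysteine was also the amino acid with the most even levels, with a mean ratio of 1.77, whereas asparagine had the most uneven, with a mean of 94. Valine (13.2 and 14 in DMSO, 10.1 and 5.56 in PD), phenylalanine and isoleucine had lower ratios in PD too. Histidine was the exception, with 11.5 and 9.46 in DMSO and 15.9 and 14.3 in PD. The proline and glutamate ratios both take Eprs as the cytosolic enzyme.

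**Figure D3:**
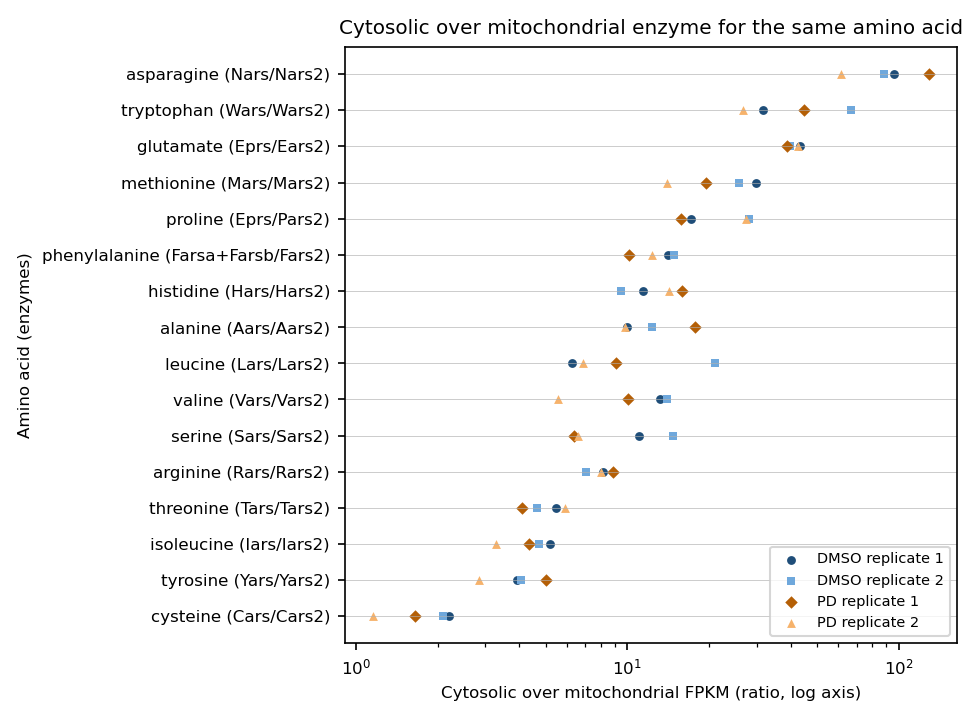
Ratio of the cytosolic to the mitochondrial FPKM for the 16 amino acids with both enzymes among the genes described, on a log axis, with a symbol for each of the 4 libraries. The ratios run from a mean of 1.77 for cysteine to 94 for asparagine. For 6 amino acids, serine among them, both PD libraries lie below both DMSO libraries, for 1 above them, and for 9 the groups overlap. The share over other pairs of genes was not computed. For these 6 the mitochondrial enzyme was itself higher in both PD libraries.

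Genes that work beside the synthetases were compared as 5 lists, and 0 genes of any list passed the limma test, with 2 tRNA modification genes at an unadjusted p under 0.05 and 0 genes passing by voom. Of the 14 synthetase partners and proofreading factors, 1 was higher, 4 lower and 9 overlapping. That is 35.7% without overlap, beside 35.8% of all genes. Their median log2 difference was 0.04. The sign of this median was negative with a pseudocount of 0.1 FPKM and without DMSO replicate 1, DMSO replicate 2 or PD replicate 1 (down to -0.21). Prorsd1, a homologue of a domain that frees wrongly charged tRNA, had 11.1 and 6.07 FPKM in DMSO and 8.12 and 19.3 in PD. Gatc, a subunit of the enzyme that makes mitochondrial glutamine tRNA by amidation, had 3.43 and 3.39 FPKM in DMSO and 4.73 and 0.681 in PD, where the last value came from 1 recovered read. Pstk, a kinase on the path to selenocysteine tRNA, had 20.5 and 6.9 FPKM in DMSO and 21.1 and 13.9 in PD. All of these overlapped between groups.

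Of the factors that deliver charged tRNA to the ribosome, 5 were tested, while Tufm and Eef1a2 were under 1 FPKM on average and not tested. Among the 5, 1 was higher and 4 overlapped, or 20% without overlap beside 35.8% of all genes. Their median was 0.13. The direction of this median was not stable: it was -0.25 without DMSO replicate 2, 0.29 without PD replicate 2 and -0.05 with voom. Tsfm, the exchange factor of the mitochondrial pathway, had 22.5 and 38.5 FPKM in DMSO and 36.2 and 53.7 in PD. Eef1g, a subunit of the cytosolic exchange factor, had 36.9 and 20.5 FPKM in DMSO and 34.8 and 15.7 in PD, and Eef1d, another subunit, had 136 and 132 in DMSO and 167 and 136 in PD. The margin of Eef1d was that of PD replicate 1 alone. Of the 14 genes for sensors of uncharged tRNA and the steps after them, 1 was higher, 2 lower and 11 overlapping. That is 21.4% without overlap, below the 35.8% of all genes. Their median was 0.01, and it was -0.11 without DMSO replicate 2 and -0.10 without PD replicate 1. It was also negative in the rescaled table and with the filter at 5 FPKM (-0.02 in each). Ppp1r15a, which directs a phosphatase to eIF2, had 5.98 and 1.93 FPKM in DMSO and 2.4 and 1.51 in PD. Eif2b5, the catalytic subunit of the eIF2 exchange factor, had 42 and 40.8 FPKM in DMSO and 50.1 and 67 in PD, and Eif2s1, the eIF2 subunit that is phosphorylated, had 26.8 and 25.4 in DMSO and 27.6 and 12.7 in PD. For Eif2s1 the low value was PD replicate 2 alone.

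Of the genes that make and mature tRNA before charging, 0 passed. The 23 tRNA maturation and export genes tested had a median of -0.17, with 17 below 0, and 2 were higher, 7 lower and 14 overlapping between groups, beside 17.5% higher and 18.3% lower among all genes tested, whose median was -0.02. Pop7, a subunit of the RNase P and MRP complexes, had 23 and 8 FPKM in DMSO and 3.94 and 5.45 in PD, from 63, 31, 5 and 3 recovered reads. Rpp25, another such subunit, went the other way, with 14.9 and 12.5 FPKM in DMSO and 20.3 and 35.6 in PD. Tsen34, of the tRNA splicing endonuclease, had 18.8 and 18.3 FPKM in DMSO, 19.6 in PD replicate 1 and 0.847 in PD replicate 2, so its difference rested on that library. Of the 45 tRNA modification genes tested, 7 were higher, 7 lower and 31 overlapping, so 31.1% had no overlap beside 35.8% of all genes. Their median was -0.09. That median was 0.13 without PD replicate 2 and -0.26 without PD replicate 1, so its direction rested on the shallowest library. The pseudouridine synthase Pus7 had 8.14 and 8.6 FPKM in DMSO and 3.54 and 4.07 in PD, and the dihydrouridine synthase Dus1l had 15.7 and 22.6 in DMSO and 7.91 and 9.42 in PD (limma adjusted p = 0.803 for both). Each had tight PD libraries well below DMSO. Trmt61a, the catalytic subunit of a tRNA methyltransferase, had 9.65 and 6.22 FPKM in DMSO and 4.94 and 1.44 in PD.

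**Figure D4:**
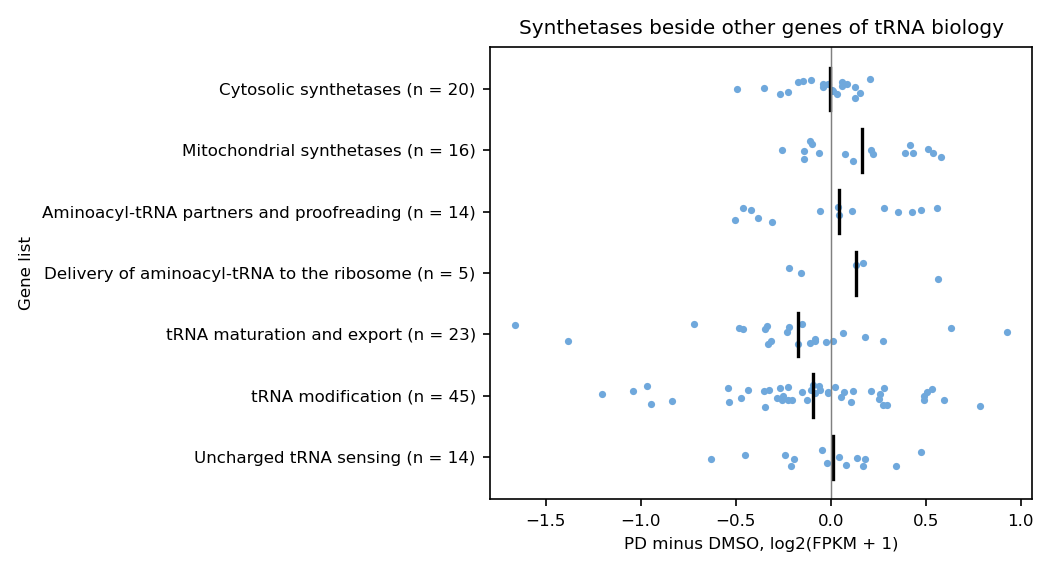
Difference between PD and DMSO in log2(FPKM + 1) for the cytosolic synthetases, the mitochondrial synthetases and the tested genes of 5 lists, with a point for each gene and a black bar at the median. The cytosolic enzymes lie between -0.49 and 0.21, the medians run from -0.17 for tRNA maturation and export to 0.16 for the mitochondrial synthetases, and points are spread vertically only for legibility.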

How the data were processed

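The authors deposited FPKM for 25170 genes in 4 libraries in 1 table, laid out as Cufflinks writes it, per the file headers. Cufflinks, STAR, Bowtie2, Trimmomatic and FastQC, and the build mm10, stand in the submitters' processing notes. The handling of reads with several matches is not given in the sources used. 1 gene with a failed status was left out, and 25080 symbols were found in RefSeq (GRCm38.p6). Starts are given 1-based.

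The synthetases and the gene lists were chosen with earlier results of these data known. Every synthetase was described, and 3 genes per list with the largest differences were named. The 9741 genes averaging 1 FPKM or more entered a limma 3.58.1 fit of log2(FPKM + 1) under R 4.3.3 (eBayes with a variance trend, 2 residual degrees of freedom). Benjamini-Hochberg adjustment ran over all of them, with 0.05 as the threshold. This scale understates changes of low genes. Alternatives were other pseudocounts, filters and scalings, no variance trend, a replicate block, each library left out, and voom on recovered reads. Of the 10161 genes above 0 in every library, 71% gave whole reads within 0.005 reads, against 1% with wrong steps. Intervals on reads cover counting error only. The fit and the recovery were tested on simulated data.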

Additional observations from a re-analysis of the deposited data

How the results depend on the processing

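In all 14 alternatives 0 synthetases passed, with a smallest limma adjusted p from 0.528 (without PD replicate 1) to 1. Genes passing over the whole table numbered 3 higher and 22 lower. They were 0 and 0 among protein-coding genes alone, an alternative added after seeing the data (609 at an unadjusted p under 0.05), and 0 and 0 with voom on recovered reads (400). Leaving out each library in turn gave 0 to 27 higher and 0 to 20 lower: 0 and 0 without DMSO replicate 1 or DMSO replicate 2, 13 and 10 without PD replicate 1, and 27 and 20 without PD replicate 2. The DMSO and PD libraries share replicate numbers, but the deviations of same-numbered libraries correlated at 0.0992 over the 9741 genes and at 0.203 over the 8895 protein-coding genes, and nothing in the labels pairs them. A replicate block gave 2 higher and 17 lower, with a smallest synthetase adjusted p of 0.688.

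The median of the cytosolic enzymes, -0.0028, was 0.042 with quantile normalization and ran from -0.075 to 0.028 over the libraries left out. That of the mitochondrial enzymes, 0.16, ran from 0.058 to 0.29 and was 0.43 with voom, which kept 9 of them. The same 9 had a median of 0.42 in the limma fit of FPKM. The cytosolic minus the mitochondrial median, -0.17, was -0.43 with voom and ran from -0.37 to -0.080. Enzymes without overlap numbered 8 cytosolic with quantile normalization, 3 of 13 cytosolic and 4 of 9 mitochondrial with voom (19.7% of all genes higher and 17% lower), and 11 to 13 cytosolic and 10 to 13 mitochondrial with a library left out. With 3 libraries, overlap is rarer by construction, and 29.8% to 35.9% of all genes were then higher and 31.4% to 38.6% lower. In the table rescaled to protein-coding genes, Gars (-0.017) and Rars (-0.023) had the other sign. With a library left out, the log2 difference ran from -0.15 to 0.17 for Gars, from -0.084 to 0.10 for Rars, from -0.090 to 0.24 for Tars2 and from -0.33 to 0.044 for Yars2. Of the 17 synthetases recomputed one by one, the other 13 kept their sign in each alternative that gave them a value. All of the 13 but Nars were enzymes without overlap between groups, for which leaving out a library cannot change the sign. Voom gave no value for 6 of the 13, the filter at 5 FPKM none for Mars2 and Vars2, and the protein-coding subset was not run for single genes. Depth limits the mitochondrial enzymes most, with a median of 16 recovered reads in PD replicate 2.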
